A study of Mus musculus with 4 samples.

Results

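The type 17 program was followed through 9 genes across the T cell classes of B16 melanoma, a transplantable mouse tumor line. These were the cytokine genes Il17a and Il17f, the receptor genes Il23r, Il1r1, Ccr6 and Cd163l1, the kinase gene Blk and the transcription factor genes Maf and Sox13. They were taken by symbol, 9 of the 32285 genes listed, and all 9 had UMIs (unique molecular identifiers, each counting 1 captured RNA molecule) in both libraries. Tumors were grown in mice of 6 to 8 weeks of age that carried floxed Vsir, the gene for VISTA, and both genotypes received a peptide vaccine on day 3 and 100 µg of anti–CTLA-4 antibody on days 4 and 8. VISTA-KO mice were Vsir fl/fl with CD4-Cre, and WT mice were Vsir fl/fl littermates without Cre. Tumors of each genotype were pooled (the methods give 5 to 6 mice and the legend 6 to 8 tumors), CD4+ and CD8+ cells were sorted together, and 1 gene expression library and 1 receptor library were made per pool. The isolation was on day 18 after treatment by the legend, and on days 16 to 18 by the methods.

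With 1 pooled library per genotype, the spread between mice is not known, no difference between the libraries was tested, and all intervals are 95% intervals of counting error only. Levels are given as CPM, the UMIs of a gene over all UMIs of the same cells, scaled to counts per 10 to the power of 6. Vsir itself differed by less than 1.5-fold between the libraries in all 4 classes, at 112 (WT) and 111 CPM (VISTA-KO) in CD8 cells, 109 and 117 CPM in conventional CD4 cells, 112 and 117 CPM in regulatory cells, and 143 and 128 CPM in Trdc cells without a TCR beta contig. Which part of Vsir is deleted is not given in the sources used here, and UMIs can come from RNA that still holds the rest of the gene. The genotypes could therefore not be checked by Vsir, and WT and VISTA-KO name the libraries as labelled. CD4-Cre acts in thymocytes that pass through a CD4+CD8+ stage, which γδ T cells generally do not, so that deletion of Vsir in γδ T cells is not established here. The WT library held 10224 cells with 600 or more genes and under 30% mitochondrial UMIs, at a median of 4723 UMIs, and the VISTA-KO library 9946 cells at 4670 UMIs. The libraries shared 145 barcodes. A productive TCR beta (TRB) contig was found in 73.6% of WT and 82.6% of VISTA-KO cells. Cells were assigned by UMIs to a CD8 class (Cd8a or Cd8b1 and no Cd4; 5549 WT and 4350 VISTA-KO cells), a conventional CD4 class (Cd4 and no Foxp3; 1768 and 3048), a regulatory class (Foxp3 and Cd4; 1528 and 1270) and a class with a UMI of Trdc, the constant gene of the TCR delta chain (123 and 276). A cell with a Trdc UMI could also be in another class. Cells with Trdc and without a TRB contig numbered 80 in WT (0.783% of cells, interval 0.621 to 0.973) and 165 in VISTA-KO (1.66%, 1.42 to 1.93). The cells were sorted on CD4 and CD8, but of the Trdc cells without TRB that had a UMI of the γδ variable genes Tcrg-V6 or Trdv4, 5 of 54 in WT and 6 of 118 in VISTA-KO had a Cd8a UMI, and 4 and 7 had a Cd4 UMI. The part of the sort in the number and make-up of the Trdc cells was not tested. The T cell markers Cd3d, Cd3e and Cd3g summed to 4299 and 3802 CPM in them, and 4 γδ receptor constant genes, Trdc among them, to 680 and 861 CPM.

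IL-17A and IL-17F are secreted cytokines made by Th17 cells, a CD4+ lineage, and by a subset of γδ T cells that acquires this program in the thymus. In both cell types the program is driven by IL-23 and IL-1 through the receptors encoded by Il23r and Il1r1. Maf and Sox13 are transcription factors of the γδ T cells that make IL-17, the kinase Blk is needed for these cells, and Cd163l1, a scavenger receptor family member, marks them.

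The sequences in front of a RefSeq start site of Il17a and of Il17f are shown because both genes are neighbors and both cytokines are read below. Il17a (ENSMUSG00000025929) lies on chromosome 1 of GRCm38 from 20730905 to 20734496, and Il17f (ENSMUSG00000041872) on chromosome 1 from 20777146 to 20785274. The start site used for Il17f lies inside this span, so that the stretch shown for Il17f is also within it. The 150 bases before each RefSeq start site of GRCm38.p6 follow, 5′ to 3′ on the strand of the gene, with AGGTCA or its reverse complement TGACCT, a core that many nuclear receptors can bind, in capitals.
Il17a, chr1:20730755-20730904, plus strand: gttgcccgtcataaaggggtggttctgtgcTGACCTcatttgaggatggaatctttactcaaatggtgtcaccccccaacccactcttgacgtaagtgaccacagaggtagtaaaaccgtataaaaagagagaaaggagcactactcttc
Il17f, chr1:20784271-20784420, minus strand: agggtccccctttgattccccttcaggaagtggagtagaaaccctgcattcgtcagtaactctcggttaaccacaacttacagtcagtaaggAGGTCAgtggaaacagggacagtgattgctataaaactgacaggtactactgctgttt
The motif started 120 bases before the start site used for Il17a and 58 bases before that used for Il17f. On either strand, AGGTCA was in 4 of the 9 RefSeq windows of these genes, those of Il17a, Il17f, Il23r and 1 of the windows of Ccr6, and in 16.3% of all 32851 windows (250 bases before to 50 bases after a start). The windows covered 7 of the 9 genes. A match describes these letters only.

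Cells with Trdc and without TRB stood above every other class for nearly all of the genes. Il17a was at 1266 CPM in WT cells of this kind (interval 1172 to 1366) and at 2238 CPM in those of VISTA-KO (2151 to 2328). Against the conventional CD4 cells with TRB, which share no cell with them, these were 354-fold (229 to 575) higher in WT and 18.8-fold (17.6 to 20.04) higher in VISTA-KO. The smaller VISTA-KO ratio goes with a higher level of Il17a in VISTA-KO conventional CD4 cells.

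Genes under 20 CPM in both groups were left out of the comparison by fold. The WT Trdc cells without TRB were more than 2-fold higher (after adding 5 CPM) than conventional CD4 cells with TRB for all 9 genes of the program, where 3.37% of all genes were. Against regulatory cells with TRB, 8 of 9 were past this fold (all genes 4.91%), Maf being the exception, and against CD8 cells with TRB all 9 were (4.56%). In VISTA-KO, Il17f was below 20 CPM and left 8 genes. Of these, 8 were past the fold against conventional CD4 cells (all genes 3.77%), 7 against regulatory cells (4.23%), again without Maf, and 8 against CD8 cells (4.62%).

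**Figure D1:**
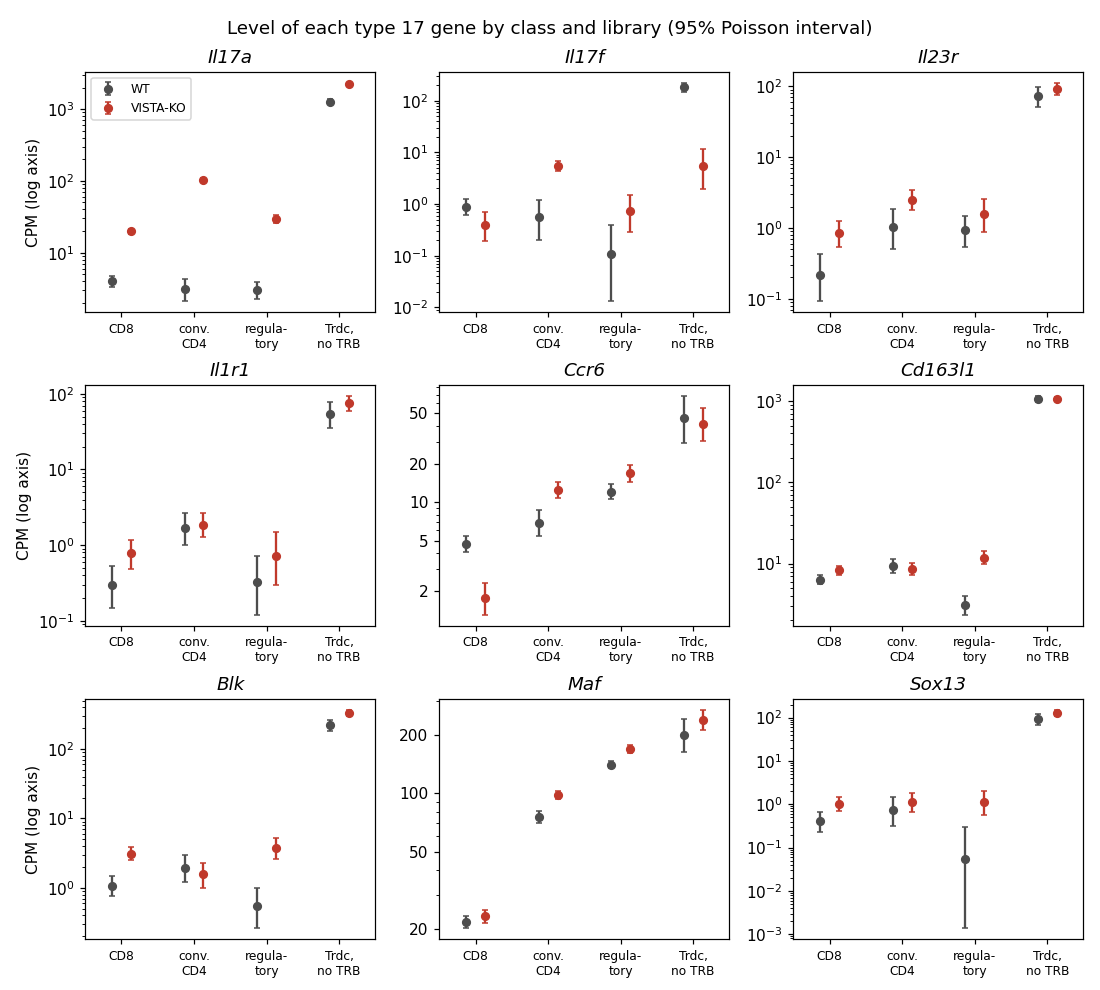
Level of each of the 9 genes in CPM (log axis) in CD8, conventional CD4 and regulatory cells and in Trdc cells without TRB, for the WT (grey) and VISTA-KO (red) libraries; points are summed UMIs over all UMIs of a class and bars are 95% Poisson intervals. All genes but Il17f in VISTA-KO are highest in Trdc cells without TRB, and Maf and Ccr6 are the genes with the smallest distance to the regulatory cells.

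The cytokine Il17a also had the largest log2 ratio between libraries of the 9 genes in conventional CD4, regulatory and CD8 cells. In conventional CD4 cells the WT library held 33 Il17a UMIs in 6 of 1768 cells, or 3.07 CPM, and the VISTA-KO library 1656 UMIs in 118 of 3048 cells, or 103 CPM. Their ratio was 33.7 (23.9 to 49.1), and the log2 ratio 3.75 after adding 5 CPM. The make-up of this class differed between the libraries. TRB was found in 70.5% of WT and 82.7% of VISTA-KO cells. The CD8 markers Cd8a and Cd8b1 summed to 897 (WT) and 457 CPM (VISTA-KO), and the CD4 markers Cd4 and Cd40lg to 456 and 683 CPM. Summed plasmacytoid dendritic cell markers were at 586 and 256 CPM, and melanoma markers at 204 and 15.7 CPM. In conventional CD4 cells with TRB, Il17a was at 3.58 and 119 CPM (ratio 33.3, 21.7 to 54.0). The part of the make-up was not tested. In regulatory cells Il17a was at 3.00 (WT) and 29.6 CPM (VISTA-KO; ratio 9.86, 7.36 to 13.4), and in CD8 cells at 3.98 and 19.9 CPM (ratio 5.01, 4.17 to 6.04). The WT levels of the 3 classes had overlapping intervals, whereas the VISTA-KO levels were ordered conventional CD4, regulatory and CD8 without overlap. In VISTA-KO, however, 1 regulatory cell held 77 of 285 Il17a UMIs and 1 CD8 cell 95 of 566. After thinning each cell to 2000 UMIs, the share of conventional CD4 cells with an Il17a UMI was 0.245% in WT and 3.15% in VISTA-KO. In VISTA-KO regulatory and CD8 cells it was 1.15% (0.629 to 1.92) and 0.72% (0.487 to 1.03), with overlapping intervals. Regulatory cells with TRB had Il17a at 7.98 (WT) and 26.1 CPM (VISTA-KO; ratio 3.275, 2.375 to 4.587), and those without at 0.415 and 36.5 CPM. In all regulatory cells the CD8 markers summed to 857 (WT) and 389 CPM (VISTA-KO), and the CD4 markers to 226 and 383 CPM. The part of this make-up was not tested. TRB was found in 52.4% of WT and 75.6% of VISTA-KO regulatory cells. In those with TRB, 1 VISTA-KO cell held 77 of 167 Il17a UMIs. Thinned shares of regulatory cells with TRB were 0.517% (0.141 to 1.32) and 0.755% (0.304 to 1.55), with overlapping intervals. In cells with Siglech and no Cd3e, plasmacytoid dendritic-like cells that should lack the gene, Il17a had 0 UMIs in 146 WT and 103 VISTA-KO cells. These cells had medians of 8300 and 8712 UMIs, and conventional CD4 cells had 4106 and 4224. A count of 0 allows up to 2.50 and 3.25 CPM here (3 counts of the total), and Siglech cells were also at 0 for Il17f, Il23r, Cd163l1 and Sox13.

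Cells with Trdc that also counted as CD8 or CD4 held part of these UMIs. With cells holding a Trdc UMI taken out, Il17a was at 3.02 (WT) and 3.87 CPM (VISTA-KO) in CD8 cells, at 1.21 and 16.8 CPM in regulatory cells, and at 0.469 and 84.6 CPM in conventional CD4 cells. The CD8 levels then differed by a log2 ratio of 0.14, and the conventional CD4 levels by 4.03, which was as large as with these cells. In VISTA-KO CD8 cells, 459 of 566 Il17a UMIs lay in the 105 cells that held a Trdc, Tcrg-V6 or Trdv4 UMI. In VISTA-KO conventional CD4 cells with TRB, the 2477 cells without any such UMI included 100 with Il17a or Il17f (4.04%, 3.30 to 4.89), against 4 of 1237 in WT (0.323%, 0.0882 to 0.826).

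Il17f, the second cytokine, was higher in VISTA-KO conventional CD4 cells, as Il17a was, but lower in VISTA-KO Trdc cells without TRB. In Trdc cells without TRB the WT library held 95 Il17f UMIs in 3 of 80 cells, or 181 CPM, and the VISTA-KO library 6 UMIs in 4 of 165 cells, or 5.41 CPM. A single WT cell held 84 of the 95 UMIs, and without the cell with most Il17f UMIs in each library the levels were 21.3 and 2.71 CPM. In conventional CD4 cells Il17f was at 0.558 (WT, 3 cells) and 5.49 CPM (VISTA-KO, 37 cells), with a ratio of 9.84 (4.35 to 27.5). In VISTA-KO the conventional CD4 cells and the Trdc cells without TRB therefore had Il17f levels with overlapping intervals (4.40 to 6.76 and 1.99 to 11.8 CPM). Both were above regulatory and CD8 cells, at 0.728 and 0.387 CPM.

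**Figure D2:**
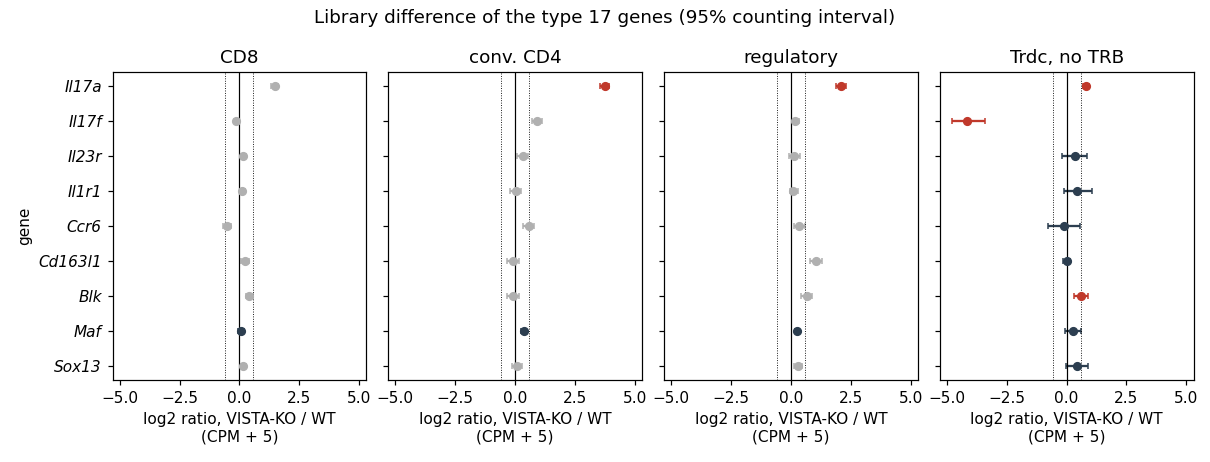
Log2 ratio of VISTA-KO over WT (CPM + 5) for the 9 genes in the 4 classes, with 95% counting intervals; red points are past 1.5-fold (dotted lines) with at least 20 CPM in 1 library, dark points are within it, and grey points are below 20 CPM in both libraries. Il17a lies to the right in all 4 panels, and Il17f lies at -4.16 in Trdc cells without TRB, where 1 WT cell held most of its UMIs.

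Few other genes of the program differed between the libraries by more than 1.5-fold, again leaving out genes under 20 CPM in both. In CD8 cells 0 of 1 gene of the program was past it (all genes 1.4%), in conventional CD4 cells 1 of 2 (3.28%) and in regulatory cells 1 of 2 (3.84%), in both cases Il17a, with Maf as the other gene at this level. In Trdc cells without TRB 3 of 9 were, Il17a and Blk higher and Il17f lower in VISTA-KO, where 17.2% of all genes were past the same fold. Il17a there differed by a log2 ratio of 0.82 (0.70 to 0.94), and the share of cells with a UMI was 31 of 80 in WT (38.8%, 28.1 to 50.3) and 85 of 165 in VISTA-KO (51.5%, 43.6 to 59.4), with overlapping intervals. The median depths were 4260 and 5492 UMIs, and after thinning the shares were 34.6% and 46.2%. A single WT cell with 198 Il17a UMIs held 29.9% of the WT total, and without the top cell of each library the log2 ratio was 1.24. Markers of other cells were also present in these Trdc cells. Of 5 myeloid markers (Lyz2, C1qa, C1qb, Csf1r and Cd14), 5 had UMIs in WT and 3 in VISTA-KO, summing to 288 and 12.6 CPM. The 4 plasmacytoid markers summed to 19.1 and 80.3 CPM, the 5 B cell markers to 68.8 and 54.1 CPM, all from Cd79b, and the 4 melanoma markers to 0 and 2.71 CPM. Without cells holding 2 or more UMIs of these markers, the Il17a log2 ratio was 0.44, under 1.5-fold. The part of these markers in the result was not tested.

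The receptor for IL-23, Il23r, was at 72.6 (WT) and 92.9 CPM (VISTA-KO) in Trdc cells without TRB, with a log2 ratio of 0.34 (-0.18 to 0.87). In the other classes its levels lay between 0.214 CPM, in WT CD8 cells, and 2.49 CPM, in VISTA-KO conventional CD4 cells, within what a count of 0 in Siglech cells allows. The Trdc cells were above all others in both libraries, and the intervals of conventional CD4 and regulatory cells overlapped. Il1r1, the signaling receptor of IL-1, was at 53.5 (WT) and 74.8 CPM (VISTA-KO) in Trdc cells without TRB (log2 ratio 0.45, -0.13 to 1.05). Outside them it lay between 0.294 CPM, in WT CD8 cells, and 1.87 CPM, in VISTA-KO conventional CD4 cells. Siglech cells had Il1r1 at 1.67 (0.202 to 6.01) and 2.17 CPM (0.263 to 7.83), from 2 UMIs in each library. The levels outside the Trdc cells could therefore not be placed above those of Siglech cells.

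Ccr6, the receptor for the chemokine CCL20, was shared more widely. Its levels were 45.8 (WT) and 41.5 CPM (VISTA-KO) in Trdc cells without TRB, at 12.1 and 16.8 CPM in regulatory cells, and at 6.88 and 12.5 CPM in conventional CD4 cells. In CD8 cells Ccr6 was at 4.70 (WT) and 1.76 CPM (VISTA-KO; ratio 0.374, 0.268 to 0.515), the opposite direction to conventional CD4 cells (1.82, 1.39 to 2.41). Siglech cells had 3.33 (0.907 to 8.53, 4 UMIs) and 2.17 CPM (0.263 to 7.83, 2 UMIs). The CD8 level of each library lay within the Siglech interval of that library, so that neither could be placed above it. Trdc cells, 1.20% of WT and 2.78% of VISTA-KO cells, held 7.44% and 12.0% of all Ccr6 UMIs, and regulatory cells without Trdc held 39.6% and 28.3%.

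Cd163l1 had the log2 ratio nearest 0 of the 9 genes in Trdc cells without TRB, with 1054 (WT) and 1056 CPM (VISTA-KO; log2 ratio 0.00, -0.14 to 0.15). It had a UMI in 58 of 80 and 119 of 165 of these cells, 72.5% and 72.1%. In the other classes, which include cells with a Trdc UMI, Cd163l1 lay between 3.11 CPM, in WT regulatory cells, and 11.9 CPM, in VISTA-KO regulatory cells. Of its UMIs in regulatory cells, 2 of 57 in WT and 14 of 114 in VISTA-KO lay in cells without Trdc. Trdc cells held 74.1% of all Cd163l1 UMIs in WT and 87.0% in VISTA-KO.

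Blk, a kinase of the Src family, was at 220 (WT) and 333 CPM (VISTA-KO) in Trdc cells without TRB, with a log2 ratio of 0.59 (0.29 to 0.89), just past 1.5-fold. Thinned shares of cells with a Blk UMI were 32.1% (21.9 to 43.6) and 44.3% (36.4 to 52.4), with overlapping intervals. Among those with a Tcrg-V6 or Trdv4 UMI, thinned in another random draw, the shares were 59.6% and 60.2%. In the other classes Blk lay between 0.546 and 3.74 CPM, both in regulatory cells, the lowest in WT and the highest in VISTA-KO. Of its UMIs in regulatory cells, 3 of 10 in WT and 6 of 36 in VISTA-KO lay in cells without Trdc. Trdc cells held 72.4% and 85.7% of its UMIs.

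The 2 transcription factors had unlike patterns. Sox13 was at 93.6 (WT) and 129 CPM (VISTA-KO) in Trdc cells without TRB (log2 ratio 0.44, -0.01 to 0.91) and at 0.0546 to 1.14 CPM in all other classes, within what a count of 0 in Siglech cells allows. Trdc cells held 76.5% and 86.7% of Sox13 UMIs, and 1 of the 11 Sox13 UMIs of VISTA-KO regulatory cells lay in a cell without Trdc. Maf, in contrast, was at 199 and 239 CPM in Trdc cells without TRB, 141 and 169 CPM in regulatory cells, 75.5 and 97.8 CPM in conventional CD4 cells and 21.6 and 23.3 CPM in CD8 cells, for WT and VISTA-KO. The classes had this order in both libraries without overlap of neighboring intervals. Regulatory cells with TRB alone had Maf at 189 CPM in WT (179 to 201), which overlapped the Trdc cells without TRB (162 to 241). In VISTA-KO they were at 179 CPM (169 to 190), below those Trdc cells (211 to 270). Trdc cells held 3.29% and 8.34% of Maf UMIs, and regulatory cells without Trdc held 51.4% and 33.5%.

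Trdc cells with a TRB contig, 43 in WT and 111 in VISTA-KO, had lower levels than those without for Il17a, Cd163l1, Blk and Sox13 in both libraries. Il17a was at 551 (474 to 636) and 1387 CPM (1309 to 1469) in them, Cd163l1 at 643 and 469 CPM, Blk at 120 and 168 CPM, and Sox13 at 38.9 and 46.2 CPM, with intervals that did not overlap those of Trdc cells without TRB. Il23r followed this order at 41.9 and 43.8 CPM, but its WT intervals overlapped. Cells with both Trdc and TRB had more UMIs, with medians of 6313 and 7035. Of them, 51.2% (WT) and 38.7% (VISTA-KO) had a Tcrg-V6 or Trdv4 UMI, against 67.5% and 71.5% of those without TRB. Among cells with such a UMI, Il17a was at 1064 and 2976 CPM with TRB and at 2006 and 3435 CPM without. Cd163l1, Blk and Sox13 were also lower with TRB there, with overlapping WT intervals for Blk and Sox13. The part of depth and make-up in these differences was not tested. In conventional CD4 cells of VISTA-KO, Il17a was higher with TRB (119 CPM, 113 to 126) than without (58.5 CPM, 51.5 to 66.3). In CD8 cells of VISTA-KO the order was the other way, at 15.6 CPM with TRB and 44.9 CPM without.

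Within single cells the genes occurred together. Trdc cells without TRB had UMIs of a median of 4 of the 9 genes in WT and 5 in VISTA-KO, and 42.5% and 53.9% of them had 5 or more. Among conventional CD4 cells, 0.792% in WT and 2.10% in VISTA-KO had 3 or more. All 31 WT and all 85 VISTA-KO Trdc cells without TRB that had Il17a or Il17f UMIs also had Cd163l1. Of these, 26 and 81 had Blk, 26 and 70 had Maf, 16 and 61 had Sox13, 11 and 48 had Il1r1, 9 and 43 had Il23r, and 7 and 24 had Ccr6.

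The program split the Trdc cells by receptor RNA. Tcrg-V6 and Trdv4 encode the variable regions of the Vγ6Vδ1 receptor, a receptor of γδ T cells that make IL-17, and 54 of 80 WT and 118 of 165 VISTA-KO Trdc cells without TRB had a UMI of either. In these cells Il17a was at 2006 (WT) and 3435 CPM (VISTA-KO), with a ratio of 1.71 (1.57 to 1.87), and Blk at 348 and 504 CPM (1.45, 1.17 to 1.80). Thinned shares with Il17a were 55.8% and 63.6%, and with Cd163l1 92.3% and 92.4%. The 26 WT and 47 VISTA-KO cells with neither had 0 UMIs of Il17a, Il17f and Il1r1, which allows up to 15.5 and 7.76 CPM. They had 18 (WT) and 2 (VISTA-KO) UMIs of Cd163l1, 0 and 5 of Blk, and 0 and 1 of Il23r. A Cd8a UMI was in 15 of the 26 WT and 18 of the 47 VISTA-KO cells with neither, and a Cd4 UMI in 0 and 12. Whether all of these cells are γδ T cells was not tested. Nkg7, a granule protein gene, was in 23 of 26 WT cells with neither against 10 of 54 with a UMI of either, and in 43 of 47 VISTA-KO cells against 14 of 118, without overlap of intervals. Tbx21, the type 1 regulator, was in 9 of 26 against 5 of 54 WT cells and in 23 of 47 against 18 of 118 VISTA-KO cells. Ifng was in 5 of 26 against 7 of 54 and in 23 of 47 against 4 of 118. The intervals of Tbx21 and Ifng overlapped in WT and did not in VISTA-KO.

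**Figure D3:**
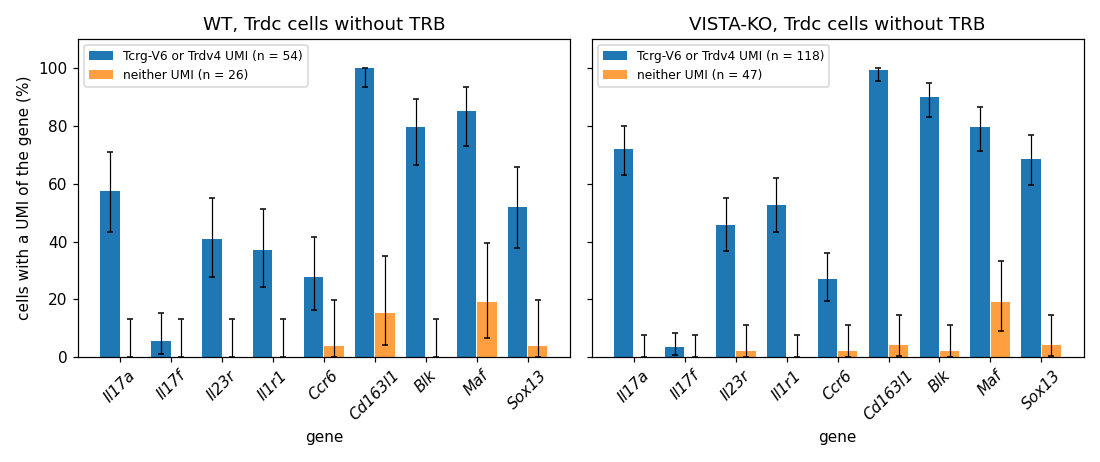
Share of Trdc cells without TRB with a UMI of each of the 9 genes, in percent, for cells with a Tcrg-V6 or Trdv4 UMI (blue) and with neither (orange), per library; bars are shares and lines are 95% Clopper-Pearson intervals. Il17a, Il17f and Il1r1 are at 0 in the cells with neither, and Maf is the gene most often found there.

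The amount of Il17a per positive cell also differed. Trdc cells without TRB that had Il17a UMIs held 1 to 198 per cell in WT (median 9, 31 cells) and 1 to 132 in VISTA-KO (median 21, 85 cells). Conventional CD4 cells with TRB that had Il17a UMIs held 1 to 11 in WT (median 3, 5 cells) and 1 to 96 in VISTA-KO (median 6, 99 cells). Of these groups, in the same order, 15, 59, 1 and 36 cells held 10 or more UMIs. The ranges overlap in all 4 groups, and high counts were found in VISTA-KO CD4 cells as well as in Trdc cells. Some of these CD4 cells also had a Trdc, Tcrg-V6 or Trdv4 UMI. In WT they held 16 of the 21 Il17a UMIs, and the cell with 11 UMIs was among them. In VISTA-KO they held 302 of 1408.

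**Figure D4:**
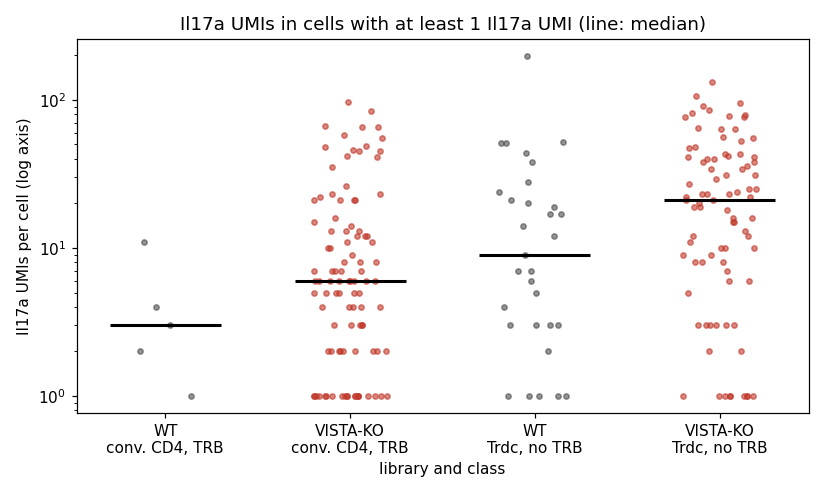
Il17a UMIs per cell (log axis) in the cells with at least 1 Il17a UMI, for conventional CD4 cells with TRB and Trdc cells without TRB in both libraries; each point is a cell, points are spread sideways at random, and lines are medians. The median is 21 in VISTA-KO Trdc cells and 6 in VISTA-KO conventional CD4 cells. The conventional CD4 cells of both libraries include cells with a Trdc, Tcrg-V6 or Trdv4 UMI.

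The genes of the program were found at unlike shares in VISTA-KO conventional CD4 cells with Il17a or Il17f. Among the 100 such cells with TRB and without Trdc, Tcrg-V6 or Trdv4 UMIs, Ccr6 was in 40 (40%, against 2.19% of 2377 other cells) and Maf in 56 (56%, against 29.6%). Il23r was in 7 and Il1r1 in 5, against shares of 0.379% and 0.463%. Cd163l1 was in 1 cell, and Blk and Sox13 in 0 of 100 (exact interval 0 to 3.62%). In the 2377 other cells, Cd163l1, Blk and Sox13 were in 4, 0 and 1. With cells holding Trdc, Tcrg-V6 or Trdv4 UMIs kept, they were in 16, 10 and 7 of 2520 VISTA-KO conventional CD4 cells with TRB. Leaving those cells out thus removed most CD4 cells with these genes, and their rarity here cannot be read apart from it. Median depths were 4364 UMIs in the 100 cells and 4117 in the others. In VISTA-KO Trdc cells without TRB with Il17a or Il17f, at 5725 UMIs, Blk was in 95.3% (88.4 to 98.7), Sox13 in 71.8% (61.0 to 81.0) and Il23r in 50.6% (39.5 to 61.6). The intervals of these 3 genes did not overlap those of the 100 CD4 cells. Cd163l1, Il1r1 and Maf were also more frequent in these Trdc cells, and Ccr6 and Il17f less. The shares were not thinned, and the part of depth was not tested. Il17f was in 29 of the 100 CD4 cells and in 4 of the 85 Trdc cells. Other genes of the type 17 list that were common in the CD4 cells were Tmem176b (83 of 100 against 8.08%), Tmem176a (80 against 7.53%), both membrane proteins, and the channel gene Aqp3 (45 against 5.81%). Ifng, the type 1 cytokine, was in 10 of 100 against 40.9%.

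**Figure D5:**
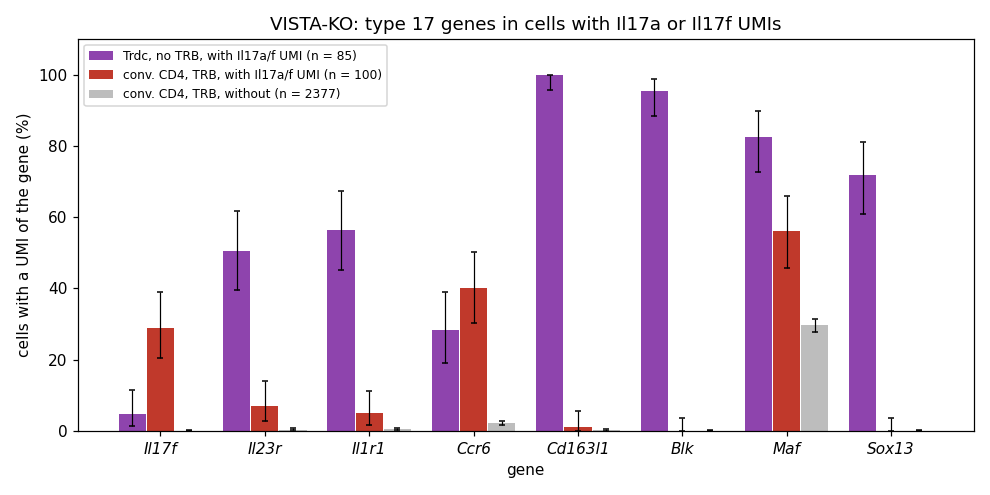
Share of VISTA-KO cells with a UMI of the genes of the program other than Il17a, in percent, for Trdc cells without TRB with Il17a or Il17f (purple, n = 85), conventional CD4 cells with TRB, with Il17a or Il17f and without Trdc, Tcrg-V6 or Trdv4 UMIs (red, n = 100), and the other such conventional CD4 cells (grey, n = 2377); lines are 95% Clopper-Pearson intervals. Cd163l1, Blk and Sox13 are near 0 in both CD4 groups, and Ccr6 and Maf are more frequent in the red than in the grey group. Leaving out cells with Trdc, Tcrg-V6 or Trdv4 UMIs also removed most CD4 cells with Cd163l1, Blk or Sox13.

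The TCRs of these CD4 cells are shown because they tell whether the Il17a UMIs came from 1 expanded family of cells. The 109 VISTA-KO conventional CD4 cells with TRB and with Il17a or Il17f fell into 71 beta clonotypes, cells with the same TRBV gene and the same junction, and 61 clonotypes had a single such cell. The 3 clonotypes with most such cells held 29 of the 109. Their junctions follow, 5′ to 3′, with capitals for the bases between the end of the V and the start of the J alignment in the deposited contig coordinates. These alignments can run past the germline match, and in clonotype 3 the D alignment overlaps both.
clonotype 1, TRBV3 and TRBJ2-2: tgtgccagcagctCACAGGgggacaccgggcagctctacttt
clonotype 2, TRBV5 and TRBJ2-5: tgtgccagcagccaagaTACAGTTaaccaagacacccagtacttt
clonotype 3, TRBV5, TRBD1 and TRBJ1-6: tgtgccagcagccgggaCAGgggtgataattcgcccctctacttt
Il17a or Il17f was found in 16 of 29 conventional CD4 cells of clonotype 1, 8 of 12 of clonotype 2 and 5 of 10 of clonotype 3. Clonotypes 1, 2 and 3 held 179, 72 and 142 of the 1408 Il17a UMIs of VISTA-KO conventional CD4 cells with TRB. Maf was in 15, 10 and 4 conventional CD4 cells of these clonotypes, Ccr6 in 5, 4 and 3, and Cd163l1 and Trdc in 0. None of the 3 clonotypes was in the WT library. Of the 109 cells, 36.7% were in clonotypes of 5 or more conventional CD4 cells, against 25.6% of the 2411 others. The 7 WT cells with Il17a or Il17f had 7 different clonotypes.

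Few cells with Il17a, Il17f or Il23r and a TRB contig had a semi-invariant receptor. The TRAV1 with TRAJ33 chain of MAIT cells was in 1 of 14 such CD8 cells in WT and 1 of 36 in VISTA-KO. Among all CD8 cells with TRB it was in 2 of 4414 and 1 of 3811, a smaller share. It was in 0 of the conventional CD4, regulatory and Trdc cells with Il17a, Il17f or Il23r. The TRAV11 with TRAJ18 chain of NKT cells was in 0 of the cells with these genes in any class. The whole conventional CD4 class held 26 WT and 30 VISTA-KO cells with the NKT chain.

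A list of 29 other type 17 genes, chosen by hand, was compared in the same way. In WT, Trdc cells without TRB were set against conventional CD4 cells with TRB. Of 21 genes with at least 20 CPM, 11 were more than 2-fold higher (all genes 3.37%) and 2 lower. The median log2 difference was 1.63 against -0.01 over all genes tested. In VISTA-KO 11 were higher (all genes 3.77%) and 1 lower of 21 (median 1.29, all genes -0.01). The higher genes in both libraries included Zbtb16, the regulator of innate-like T cells, Il17re, a receptor subunit, the leukotriene B4 receptor gene Ltb4r1, and Tmem176a, Tmem176b, Aqp3, Serpinb1a, Kcnk1 and Ramp1. Against regulatory cells with TRB, 11 of 22 were higher (all genes 4.91%) and 3 lower in WT. Il22, a type 17 cytokine, was past the fold against conventional CD4 cells in WT alone, where its 26 UMIs lay in 1 Trdc cell, and Il12rb1, which pairs with Il23r, in VISTA-KO alone, and Il6ra was lower in both. Between libraries, 3 of 15 genes of the list were past 1.5-fold higher in VISTA-KO conventional CD4 cells (median 0.04, all genes -0.04). They were Tmem176a (28.3 and 61.0 CPM), Tmem176b (47.3 and 81.1 CPM) and Irf4. Of all genes there, 3.28% were past this fold in either direction. In regulatory cells 1 of 15 was higher, Il6ra (all genes 3.84% in either direction), and in CD8 cells 1 of 10, Irf4 (1.4%). In Trdc cells without TRB 3 of 21 were higher, Csf2, Il12rb1 and Ltb4r1, and 1 lower, Il22 (49.7 and 0.902 CPM, from 1 cell in each library). The median was 0.29 against -0.02 over all genes. Of all genes there, 17.2% were past this fold in either direction, a similar share. Of 7 genes for inducers and ligands, 2 had at least 20 CPM in conventional CD4 cells. Of these, Il1b was past 1.5-fold between libraries, higher in VISTA-KO (4.93 and 31.5 CPM, and 2.05 and 7.03 CPM in those with TRB). In the other classes 0 were past it. Between classes, 1 of 2 was more than 2-fold higher in Trdc cells without TRB than in conventional CD4 cells with TRB in each library. In all conventional CD4 cells the 5 myeloid markers summed to 132 (WT) and 142 CPM (VISTA-KO), with Lyz2 at 55.0 and 84.2 CPM and C1qa at 26.5 and 17.2 CPM, and in those without TRB they summed to 224 and 306 CPM, with Lyz2 at 79.2 and 200 CPM. The part of these markers in the Il1b difference was not tested. Of 10 type 1 genes, 0 were more than 2-fold higher in Trdc cells without TRB than in conventional CD4 cells of either library. In WT 2 of 10 and in VISTA-KO 4 of 9 were lower, Ifng and Il12rb2 in both. Of all genes, 196 of 6642 in WT and 188 of 6440 in VISTA-KO were lower.

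Across 16 groups of class, TRB and genotype, the genes with the most similar pattern were found by Pearson r of log2 levels among 7553 genes, as a description, since groups of 1 library share its depth and Trdc cells stand in more than 1 group. Cd163l1 was closest to Tcrg-V6 (r = 0.998), Blk and Tcrg-C1, and Blk to Abi3bp (0.994), Tcrg-V6 and Cd163l1. Il23r was closest to Abi3bp (0.996), Cryba4 and Sox13, Sox13 to Tns4 (0.994), Clnk and Il23r, and Il1r1 to Kcnk1 (0.993), Abi3bp and Il23r. Il17a was closest to Nr1d1 (0.962), a circadian nuclear receptor gene, and Il17re, and Il17f to Il22 (0.953), whose WT level in Trdc cells without TRB came from 1 cell, Camta2 and Cfap97. Maf was closest to Cpd (0.978), Rarg and Zfp36l1, and Ccr6 to Card19 (0.948), Cdk2ap2 and Tax1bp1. Of the genes that were mostly in Trdc cells, Cd163l1, Blk, Il23r, Sox13 and Il1r1 thus had one another or γδ receptor genes nearby in this ranking. Il17a, also mostly in Trdc cells, and Il17f, mostly in them in WT alone, had none of these nearby. Maf and Ccr6 had none of them either.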

How the data were processed

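Single-cell gene expression and T cell receptors were read in 1 pooled sample per genotype. The methods and the series text name a 5′ kit with receptor profiling and the sample labels a 3′ kit with feature barcodes. Per the methods and labels, Cell Ranger 5.0.0 was run on GRCm38, and the authors deposited a raw UMI count per gene and barcode, and productive contigs per barcode. Genes, lists and classes were chosen with earlier results of these data known. Named genes were the 9 genes, list genes past the fold, the 3 genes nearest in pattern to each, and the 10 genes highest in Trdc cells with Il17a or Il17f. UMIs were summed per library and class and scaled to CPM (72016854 UMIs in kept WT cells, 59817786 in VISTA-KO). Log2 ratios were taken after adding 5 CPM, which understates ratios of low genes. Counts have exact 95% Poisson intervals and shares Clopper-Pearson intervals, and those of log2 ratios combine both Poisson intervals. Shares were compared after thinning to 2000 UMIs, without shallower cells. No doublet caller was run, and cells with 2 or more TRB contigs or in the deepest 5% were left out as alternatives. The ratio, its interval and the fold call were tested on simulated summed counts of conventional CD4 cells (Python 3.11.15, numpy 2.4.6, scipy 1.17.1, pandas 2.3.3, matplotlib 3.10.9). These were independent Poisson counts, without UMIs gathered in single cells. The classes, thinning and receptors were not simulated. A gene that these rules would name is not reported here.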

Additional observations from a re-analysis of the deposited data

Results flagged for a closer look

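Ccr6 had log2 ratios of VISTA-KO over WT of -0.52 in CD8 cells and 0.56 in conventional CD4 cells, which were in opposite directions, and the difference between them was not tested. Il17f had log2 ratios of -4.16 in Trdc cells without TRB and 0.92 in conventional CD4 cells, also in opposite directions and not tested. A single cell held 84 of the 95 Il17f UMIs of the WT Trdc cells. Cells that fell into none of the classes had Il17a at 43.2 (WT) and 150 CPM (VISTA-KO), where Siglech cells had 0 UMIs. Il17a or Il17f was in 21 WT and 45 VISTA-KO cells of no class, and 9 and 12 of them had a Tcrg-V6 or Trdv4 UMI without Trdc.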

How the results depend on the processing

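No log2 ratio past the fold with at least 20 CPM changed sign under the alternatives, whereas 27 recomputed values of ratios that were not past it did. Among these, Cd163l1 in CD8 cells went from 0.23 to -0.43 with Trdc cells taken out, and Il1r1 in regulatory cells from 0.10 to -0.03. Of 468 recomputed ratios between libraries, 75 lay outside the counting interval, of 234 between classes 51, and of 72 shares 46. With Trdc cells taken out, the Il17a log2 ratio was 0.14 in CD8, 4.03 in conventional CD4 and 1.81 in regulatory cells. Without cells with a Trdc, Tcrg-V6 or Trdv4 UMI, an alternative added after seeing the data, it was 0.39, 4.03 and 1.82. With 1 CPM added it was 2.07, 4.68 and 2.94, and as the mean over cells 1.06, 4.16 and 1.87. Without cells with 2 or more TRB contigs it was 1.66 in CD8 and 2.43 in regulatory cells. Without the deepest 5% of cells it was 3.98 in conventional CD4 and 1.83 in regulatory cells, and with a gate of 2 UMIs 1.56 in regulatory cells. Without cells with markers of other cell types it was 4.46 in conventional CD4, 1.66 in regulatory and 0.44 in Trdc cells without TRB. In the last, it was 1.24 without the cell with most Il17a UMIs in each library, also added after seeing the data. The number of genes of the program past 1.5-fold in CD8 cells was 1 in place of 0 with at least 1000 genes, without cells with 2 or more TRB contigs, without the deepest 5% and without the largest clonotype. In regulatory cells it was 0 in place of 1 with a gate of 2 UMIs, without Trdc cells and without cells with γδ receptor UMIs. In Trdc cells without TRB it was 6 in place of 3 with a gate of 2 UMIs. The share of VISTA-KO conventional CD4 cells with Il17a was 3.15%, against 3.87% without thinning and 4.33% at 4000 UMIs. With 2 or more Trdc UMIs, Trdc cells without TRB were 0.430% of WT and 1.09% of VISTA-KO cells. The other added alternative left out the 3 leading clonotypes. The causes were not tested. With 1 library per genotype, no spread between mice is known, and genes at a few UMIs in 80 WT Trdc cells without TRB rest on single cells. No paired analysis was possible because each genotype has 1 library and no test was made.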

Other observations

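Within Trdc cells without TRB, the cells with Il17a or Il17f (31 WT and 85 VISTA-KO) were set against the others (49 and 80). The genes with the highest mean log2 ratio between them were chosen by these same values, so that they are a description. Ptgs2, the inducible cyclooxygenase, was at 84.8 (WT) and 68.9 CPM (VISTA-KO) in cells with the cytokines and had 0 UMIs in the others. Sdc4, a syndecan, was at 97.0 and 78.2 CPM against 16.7 and 8.74 CPM, and Ppp1r14c at 84.8 and 130 CPM against 11.2 and 15.7 CPM. Cysltr1, a receptor for cysteinyl leukotrienes, was at 36.4 and 26.1 CPM against 2.79 and 1.75 CPM. Il22 was at 158 (WT) and 1.86 CPM (VISTA-KO), from 1 cell in each library. The others were Pram1, Serinc2, Hacd4, Prr29 and Laptm4b, with log2 ratios from 1.75 to 2.97.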
